A study of Rattus norvegicus with 16 samples.

Results

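A set of 35 of 32623 Ensembl gene IDs were higher in the kidneys of DOCA-salt rats than in control kidneys and stayed about as high, on the scale used, when finerenone was given with DOCA. They were selected on the bulk RNA-Seq values themselves, on the log2(CPM + 1) scale, where CPM are counts relative to 1000000 counts of a library total scaled by TMM, a correction for the share of counts that the most abundant genes take up. A gene was selected when the mean of DOCA replicates 1 to 3 exceeded the mean of the 4 control libraries by at least 1, the mean of the 4 finerenone libraries exceeded it by at least 1, and the finerenone and DOCA means lay within 0.25 of each other. The spironolactone libraries and DOCA replicate 4 had no part in the selection. The deposited tables give Ensembl IDs with no gene names, and 0 of these IDs could be matched to the RefSeq table of the assembly GRCr8. The genes are therefore called members 1 to 35, in descending order of the smaller of their DOCA and finerenone rises, and their functions, the markers of kidney cell types, their positions and their sequences are not reported here.

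RNA of whole kidney tissue from male Sprague-Dawley rats was sequenced in 16 libraries, 4 in each of 4 groups, and the labels give an age of 6 weeks for all of them. The paper describes its bulk RNA-Seq as data after 6 weeks of treatment, so the labelled 6 weeks may stand for time on treatment. Control rats kept both kidneys after a sham operation, drank plain water and were injected with the oil alone. The other groups lost the left kidney and received weekly injections of deoxycorticosterone acetate (DOCA) with salt in the drinking water, and in addition a vehicle (the DOCA group), finerenone or spironolactone by daily gavage. Every comparison with control thus covers the operation, DOCA and salt together, and no group received either drug without DOCA. Total counts lay between 7063146 and 8056935 in 15 libraries and reached 10932887 in spironolactone replicate 4. The labels do not say that the libraries of a group come from separate rats, and p-values measure the spread between these libraries.

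DOCA, from which mineralocorticoid hormones are made, itself activates the mineralocorticoid receptor, a nuclear receptor that raises sodium uptake in the distal nephron and collecting duct. DOCA with salt after removal of a kidney is a standard model of hypertension with kidney injury. Spironolactone, a steroid, and finerenone, which is not a steroid, both block this receptor. In RNA from whole tissue, fewer cells of a type and less RNA per cell cannot be told apart.

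The 35 members were a small share of the genes raised in DOCA kidneys. A rise of at least 1 was found for 1022 IDs, and the finerenone mean was less than 1 above control for 823 of them. Of the 199 with a finerenone rise of at least 1, 157 lay below the DOCA mean by more than 0.25 and 7 lay above it by more than 0.25. The members were 3.42% of the raised IDs. Over all 1022 raised IDs the median finerenone minus DOCA difference was -0.76 on this scale, whereas among the members finerenone was below DOCA for 21 and above it for 14. These values chose the members and carry no test. Just inside the limits were a smaller rise of 1.004 and a finerenone minus DOCA distance of 0.24995, and just outside were 0.9985 and 0.258.

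**Figure D1:**
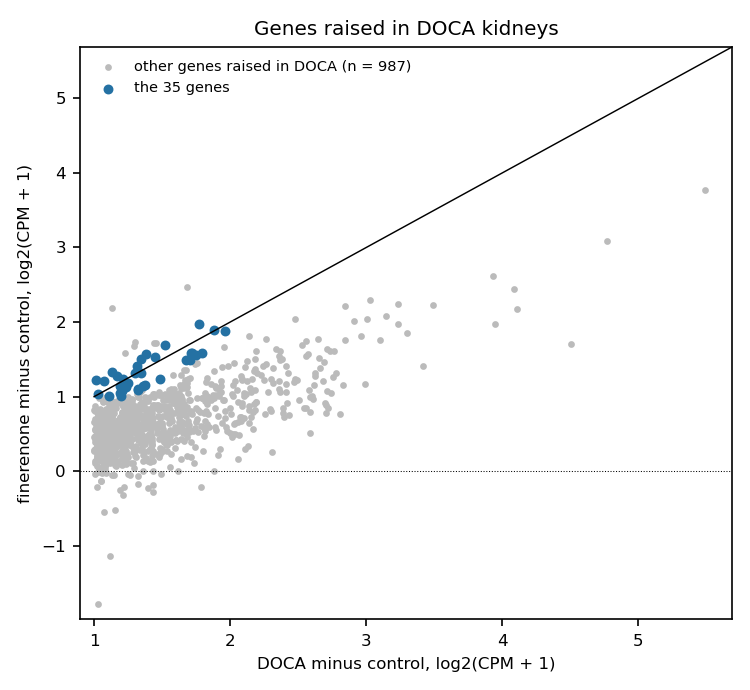
Each point is 1 of the 1022 gene IDs with a DOCA minus control difference of at least 1, placed by that difference on the x axis and by finerenone minus control on the y axis, both on the log2(CPM + 1) scale. The 35 selected genes, in blue, lie along the line where both differences are equal, and most of the other 987 IDs lie below it.

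On the log2(CPM + 1) scale, the rises of the members were at least 1 by selection. DOCA exceeded control by 1.01 to 1.96, with a median of 1.32, and finerenone exceeded control by 1.00 to 1.98, with a median of 1.27. Over the 14628 genes tested, the corresponding medians were 0.03 and -0.01. Because 1 CPM was added before taking logs, the scale understates the change of genes with few counts, and 15 members had at least 1 control library with fewer than 3 counts. At 3 counts, the smallest number read as a level here, a library's value was 0.248 to 0.484 CPM. Per transcript length, in TPM, the members' control means ranged from 0.040 to 358.7 with a median of 1.40, beside a median of 7.08 over all genes tested. A control mean under 1 TPM was found for 16 members and one of at least 10 TPM for 7.

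All 35 members passed the filter on low counts, a count above 4 in at least 3 of the 14 libraries fitted. The libraries of DOCA replicates 1 to 3 and all finerenone libraries were above every control library for 27 members, a pattern held by 5.12% of the genes tested, but this count rests on the values used for the selection. The other 8 members were selected although a DOCA or finerenone library overlapped the control range. Leaving out a single control library brought the smaller rise under 1 for 14 members, and under 0.5 for 3 of them, members 11, 13 and 15.

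Most members were also high in the spironolactone libraries. The spironolactone mean of 4 libraries exceeded the control mean by a median of 1.31 on the log2(CPM + 1) scale, beside 0.02 over all genes tested, and lay within 0.5 of the midpoint of the DOCA and finerenone means for 27 members. It lay more than 0.5 below that midpoint for 7 members and more than 0.5 above it for 1. All 4 spironolactone libraries were above every control library for 27 members, compared with 18.7% of all genes tested. These libraries were independent of the selection, but the control libraries they were compared with were not. The members had also been selected for high DOCA values, and 0 of all genes tested were called between spironolactone and DOCA. The share among the other 987 raised IDs was not calculated, so high spironolactone values are not shown to be particular to the members.

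In edgeR's quasi-likelihood test with Benjamini-Hochberg adjustment over all 14628 genes, 27 members were called higher in spironolactone than in control kidneys, 1 was called lower and 7 were not called. A call required an adjusted p under 0.05 and a log2 fold change of 0.5 or more in size, and the fit used 14 libraries, without DOCA replicate 4 and spironolactone replicate 4, which were taken to be the outliers that the study left out, since its supporting values cover the other replicates. Among all genes tested, 14.7% were called higher and 9.89% lower. The share among the other IDs raised in DOCA was not calculated. The median log2 fold change was 1.67 over the members and 0.02 over all genes tested, and the median standard errors were 0.39 and 0.18. The control libraries in this test were those that selected the members, so a low control value both favoured the selection of a member and entered this test. With each of the 14 libraries left out in turn, 25 of the 27 calls were kept in every fit. Member 5 lost its call without control replicate 1, 3 or 4 or any of spironolactone replicates 1 to 3, and member 33 without control replicate 1, 2 or 3, any of DOCA replicates 1 to 3, finerenone replicate 1 or 4, or spironolactone replicate 1 or 3, which left 25 to 27 members called.

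**Figure D2:**
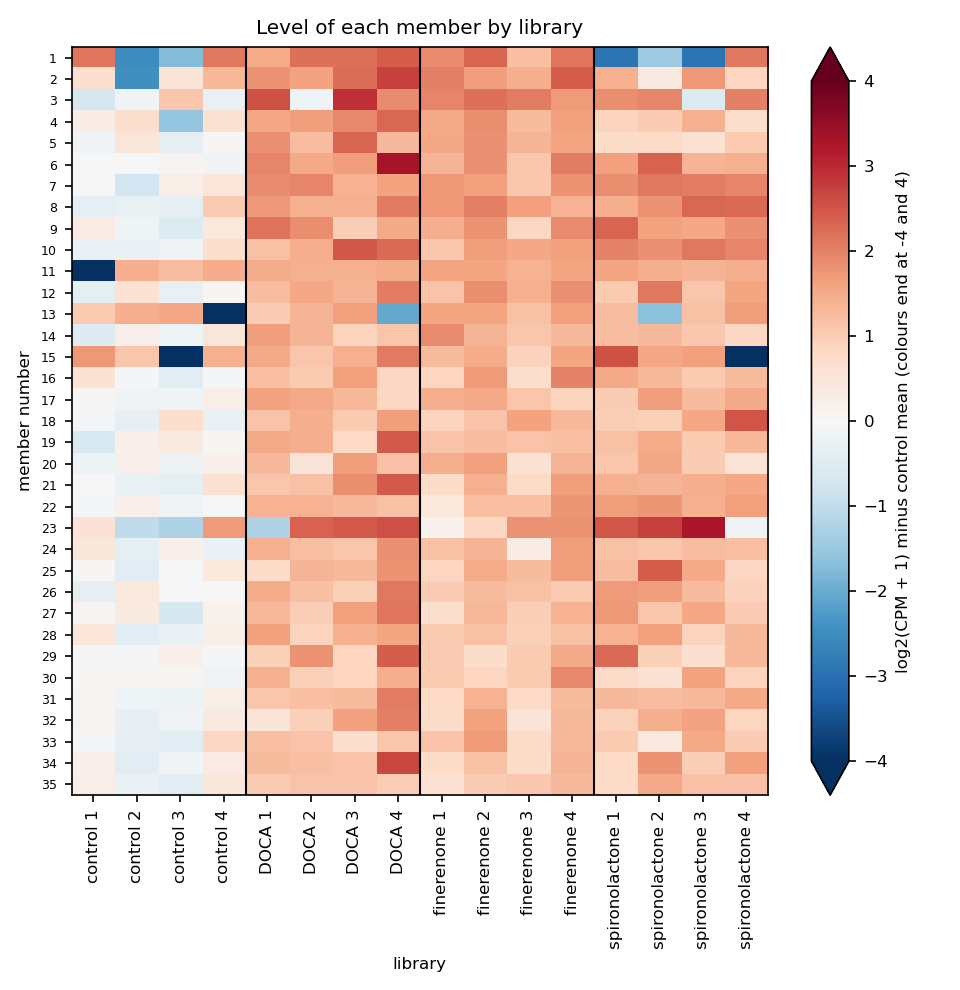
Rows are the 35 members, columns the 16 libraries, and colour is the log2(CPM + 1) value minus the control mean of that member, with colours ending at -4 and 4, which 4 values fall below. Most members are pale in all control libraries and red in all other libraries, whereas members 1, 2, 3, 11, 13, 15 and 23 have blue or pale cells beside red ones within a group, in 3 of 4 spironolactone libraries for member 1.

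The members were of 2 kinds by how their libraries of 1 group spread, a distinction made after the values were seen. Members 1, 2, 3, 11, 13, 15 and 23, 7 in all, had at least 1 library near zero, meaning under 10% of the highest library of the same group where that highest value was at least 5 CPM. Such a library was found for 20% of the members and for 1.17% of the genes tested. It was a control library for 6 of these 7 members, and 0.554% of the genes tested had a near-zero control library. A near-zero control library lowers the control mean and so favours selection, so these shares are a description. A highest value of at least 5 CPM was reached by 32 members and by 12071 of the genes tested. The pooled SD within groups of these 7 members, on the log2(CPM + 1) scale, was between 0.97 and 2.203. The other 28 members had a range of 0.21 to 0.59 and a median of 0.37, and the median over all genes tested was 0.22.

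Of the 28 members with no near-zero library, 27 were called higher in spironolactone than in control by edgeR, and of the 7 with such a library 0 were. The near-zero libraries were found in the same libraries as the test uses, spironolactone ones included for members 1, 3, 13, 15 and 23, and they widen the spread within a group, so these counts describe the members and nothing further is read from them.

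Members with no near-zero library, called steady here, are shown first. The word means only this, and libraries of 1 group could still differ widely, as in control for member 4. Members 17, 20 and 30 did not reach 5 CPM in any library, so they could not have a near-zero library. Member 26, ENSRNOG00000030021, had the smallest adjusted p of all members in spironolactone compared with control, and was chosen for its values here. It had 5.33, 9.96, 7.102 and 7.26 CPM in control replicates 1 to 4, 22.2, 18.1, 15.1 and 34.8 CPM in DOCA replicates 1 to 4, 15.9, 18.7, 17.6 and 16.02 CPM in finerenone replicates 1 to 4, and 25.7, 25.1, 18.6 and 14.5 CPM in spironolactone replicates 1 to 4. Every treated library was above every control library. The spironolactone to control log2 fold change was 1.64 ± 0.19 (SE, n = 3 and 4), with an edgeR adjusted p of 5.12e-06.

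Member 31 had 9.24, 7.43, 7.102 and 10.2 CPM in control libraries and 22.02, 21.05, 22.02 and 25.7 CPM in spironolactone libraries, in replicate order. Its DOCA libraries had 19.3, 20.6, 21.6 and 38.0 CPM, and its finerenone libraries 15.3, 23.6, 15.2 and 21.5 CPM. The groups did not overlap with control. The spironolactone to control log2 fold change was 1.35 ± 0.17 (SE, n = 3 and 4), with an edgeR adjusted p of 1.39e-05.

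Member 18 had the highest CPM of the steady members. Its control libraries had 105, 85.0, 172 and 88.4 CPM, in replicate order, its DOCA libraries 237, 298, 226 and 344 CPM, its finerenone libraries 203, 241, 331 and 265 CPM, and its spironolactone libraries 216, 209, 316 and 615 CPM. Every treated library was again above every control library, and the highest value was that of spironolactone replicate 4, which was left out of the fit. The log2 fold change of spironolactone to control was 1.13 ± 0.25 (SE, n = 3 and 4), with an edgeR adjusted p of 0.00387.

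Members 17 and 30 were almost silent in control kidneys. Member 17 had 1, 0, 0 and 2 counts in the control libraries and 47 counts over spironolactone replicates 1 to 3. After scaling, the pooled counts gave a ratio of 16.1 (exact conditional binomial 95% interval 5.18 to 80.8). Member 30 had 3 counts over the 4 control libraries and 33 over the same spironolactone libraries, with a ratio of 11.29 and an interval from 3.54 to 57.5. These intervals cover counting error only. Both members were called higher, and of the other steady members, 26 had more than 3 control counts and log2 fold changes from 0.96 in member 4 to 3.34 in member 20.

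The steady member not called was member 4. It had 16.4, 21.02, 3.84 and 20.7 CPM in control replicates 1 to 4, 25.3, 27.7, 37.1 and 22.0 CPM in spironolactone replicates 1 to 4, and between 33.4 and 68.6 CPM in DOCA and finerenone libraries. The spironolactone libraries lay above all control libraries and, apart from replicate 3, below all DOCA and finerenone libraries. Its log2 fold change over control was 0.96 ± 0.39 (SE, n = 3 and 4), with an edgeR adjusted p of 0.0756. It was called higher with the library total alone, limma-voom, both fits of log2 TPM values and without control replicate 3.

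Member 33 was the steady member with overlap in spironolactone. Its control replicate 4 had 28.2 CPM, above the other control libraries at 14.6, 12.01 and 11.2 CPM, and above DOCA replicate 3 at 25.2, finerenone replicate 3 at 26.5 and spironolactone replicate 2 at 20.4 CPM. It was called higher in spironolactone with a log2 fold change of 1.00 ± 0.36 (SE, n = 3 and 4) and an edgeR adjusted p of 0.0485. Member 24 overlapped in finerenone, where replicate 3 had 1.91 CPM, under the 2.19 CPM of control replicate 1.

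**Figure D3:**
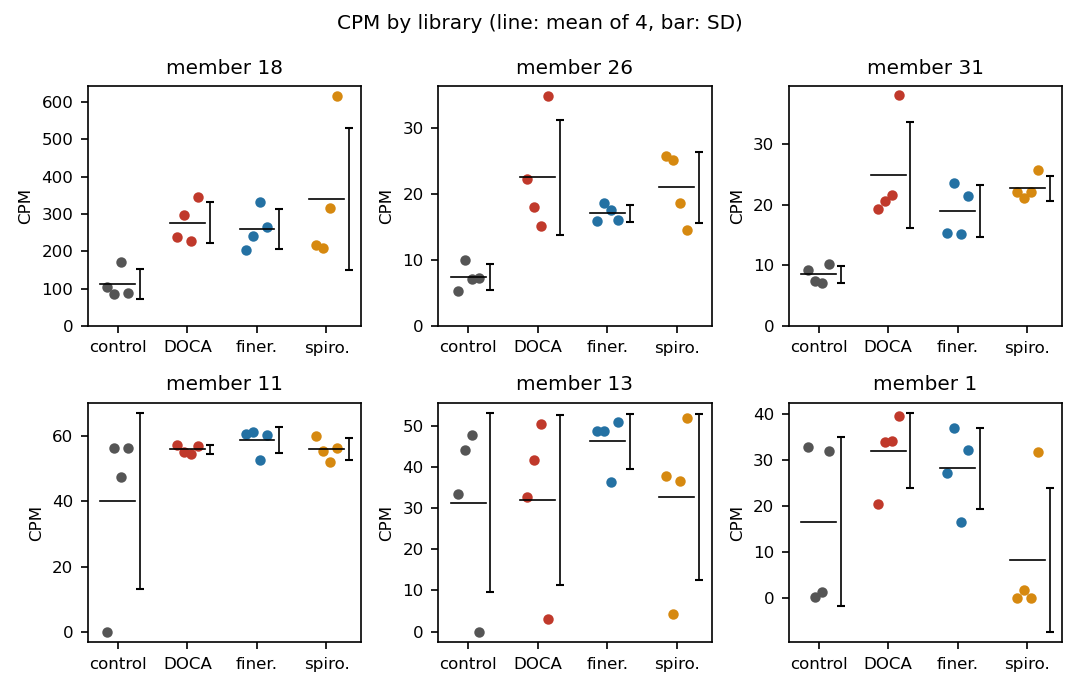
CPM of 6 members, 1 panel each, in the 4 libraries of each group (points in replicate order from left to right), with the mean of 4 as a line and the SD as a bar at its right. The upper panels show members 18, 26 and 31, whose treated libraries are all above control, and the lower panels members 11, 13 and 1, in which 1 or more libraries of a group are near 0.

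In the 7 members with near-zero libraries, the remaining control libraries were often as high as the treated ones. Member 11 had 0.157 CPM in control replicate 1 and 56.3, 47.4 and 56.3 CPM in control replicates 2 to 4. All its DOCA, finerenone and spironolactone libraries had between 52.2 and 61.3 CPM. Apart from that single library, control overlapped the treated groups, and without control replicate 1 the smaller of its rises was 0.06 on the log2(CPM + 1) scale. Member 11 was not called between spironolactone and control, with a log2 fold change of 0.48 ± 0.69 (SE, n = 3 and 4) and an edgeR adjusted p of 0.636.

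Member 13, ENSRNOG00000060344, had 33.4, 44.2, 47.7 and 0 CPM in control replicates 1 to 4. It had 32.7, 41.7, 50.6 and 3.03 CPM in DOCA replicates 1 to 4, 48.9, 48.7, 36.5 and 51.1 CPM in finerenone replicates 1 to 4, and 37.9, 4.34, 36.6 and 52.1 CPM in spironolactone replicates 1 to 4. Low libraries occurred in 3 of the 4 groups, and the control libraries above 0 overlapped all groups. Without control replicate 4 the smaller rise was -0.01. The spironolactone to control log2 fold change was -0.27 ± 0.87 (SE, n = 3 and 4), with an edgeR adjusted p of 0.847, and its sign turned on other scales and in limma-voom.

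Member 15 had the highest TPM of the members, 358.7 TPM in control, and the shortest relative length, 0.0508 of the median over genes tested, as given by its counts and TPM. It had 71.1, 45.7, 0.142 and 56.6 CPM in control replicates 1 to 4 and 125, 62.4, 66.6 and 0.165 CPM in spironolactone replicates 1 to 4, whereas its DOCA and finerenone libraries had between 40.3 and 90.1 CPM. A single control and a single spironolactone library were near 0. Without control replicate 3 the smaller rise was -0.10.

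Member 1, ENSRNOG00000050864, had the largest smaller rise of all members. It had 32.9, 0.316, 1.28 and 31.95 CPM in control replicates 1 to 4, 20.5, 33.8, 34.0 and 39.6 CPM in DOCA replicates 1 to 4, 27.1, 37.0, 16.6 and 32.2 CPM in finerenone replicates 1 to 4, and 0, 1.78, 0 and 31.7 CPM in spironolactone replicates 1 to 4. Control and spironolactone libraries were either as high as the DOCA libraries or near 0, with no value between 1.78 and 31.7 CPM in these groups. It was the member called lower in spironolactone than in control, with a log2 fold change of -4.68 ± 1.53 (SE, n = 3 and 4) and an edgeR adjusted p of 0.0366. With all 16 libraries, which brought in the high spironolactone replicate 4, the value was -0.89 with an edgeR adjusted p of 0.619.

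Member 2, ENSRNOG00000002412, had 7.52, 0, 6.82 and 12.7 CPM in control replicates 1 to 4 and 13.9, 6.12, 17.3 and 9.01 CPM in spironolactone replicates 1 to 4. Its DOCA and finerenone libraries, between 14.03 and 35.6 CPM, were all above control, and it was the near-zero member for which this held. The log2 fold change of spironolactone to control was 0.87 ± 0.68 (SE, n = 3 and 4), with an edgeR adjusted p of 0.359. Spironolactone and control overlapped.

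Members 3 and 23 were low in treated libraries as well. Member 3 had 0.64 CPM in DOCA replicate 2 and 0.241 CPM in spironolactone replicate 3, within its control range of 0.157 to 2.98 CPM, and between 4.99 and 12.8 CPM in the other treated libraries. Member 23 had 0 CPM in DOCA replicate 1, 1.16 CPM in spironolactone replicate 4 and 1.59 CPM in finerenone replicate 1, whereas control replicate 4 had 6.62 CPM. Neither was called between spironolactone and control, with edgeR adjusted p of 0.217 and 0.0816. Member 23 was called higher with the library total alone, in both fits of log2 TPM values, without control replicate 4 and without DOCA replicate 1.

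Counts that were not whole numbers, which arise when reads are shared among genes or places, occurred in 6 of the 7 near-zero members and in 1 of the other 28. Over all genes tested, 9.39% had such a count in some library, and over the 171 genes tested with a near-zero library 66.1% did. Members with such counts are uncertain, since reads of near-identical genes can be split or moved between them. The part of read sharing in the near-zero values was not tested.

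DOCA replicate 4, left out of the fit and of the selection, was above every control library for 34 of the 35 members, compared with 35.7% of all genes tested. The exception was member 13. The control libraries in this comparison were those that selected the members. The difference of this library from the control mean had a median of 1.90 over the members on the log2(CPM + 1) scale and ranged from -2.04 to 3.29. It was above each of the other 3 DOCA libraries for 20 members, compared with 35.3% of all genes tested. Those 3 DOCA libraries had also selected the members, so this count is a description. The clearest cases were member 6, with 19.7 CPM beside 7.24, 4.99 and 5.73 CPM in DOCA replicates 1 to 3, and member 34, with 39.2 CPM beside 14.1, 13.3 and 12.8 CPM.

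All 12 treated libraries, with both outliers counted, were above all 4 control libraries for 26 members and for 4.55% of all genes tested. The control libraries, DOCA replicates 1 to 3 and the finerenone libraries had chosen the members, so nothing is read from this difference. In the 28 steady members, the median difference from the control mean was between 1.30 and 1.35 in DOCA replicates 1 to 3, 1.82 in DOCA replicate 4 and between 1.24 and 1.51 in the spironolactone libraries. The control libraries ranged from -0.16 to 0.24.

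The finerenone libraries fell into 2 pairs. Each library carries a code of 2 numbers whose meaning the labels do not give, and each first number occurs in 1 group only. Finerenone replicates 1 and 3 share the first number 2, and replicates 2 and 4 the first number 3. The median difference from control over the 28 steady members was 1.07 in both libraries of the first pair and 1.47 and 1.46 in those of the second pair. Both libraries of the first pair were below both of the second for 20 of all 35 members, compared with 24.2% of all genes tested, and above them for 0 members, compared with 25.3%. All 4 finerenone libraries entered the selection, so these counts are a description. The median difference between the pairs was 0.36 over the members and -0.00 over all genes tested. Relative to the DOCA mean, the members' median was -0.24 in the first pair and 0.13 in the second, so that the finerenone mean lay close to DOCA between a lower and a higher pair. With the first pair alone the selection gave 41 IDs, 16 of them members, and with the second alone 80 IDs, 24 of them members, and 10 members met it with either pair. What the first number stands for and the group cannot be told apart between groups.

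Spironolactone and DOCA were compared to find whether the members differed between a drug group that had no part in the selection and DOCA without a drug. DOCA replicates 1 to 3, which entered this fit, had selected the members for high values. By edgeR 0 members were called, as were 0% of all 14628 genes tested. At an unadjusted p under 0.05 there were 2 members, numbers 5 and 1, and 578 of all genes. DESeq2, limma-voom and limma on log2 TPM values called 0 members as well. The median log2 fold change over the members was 0.02. The 95% interval lay within -1 and 1 for 18 of the 35 members, all of them steady ones, and reached beyond them for 17, where 2-fold differences in at least 1 direction lay inside the interval. For all genes tested the interval lay within these limits for 75.3%.

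Member 5 was low in spironolactone kidneys among the treated groups. It had 0.157, 0.79, 0 and 0.323 CPM in control replicates 1 to 4, 3.56, 2.05, 5.39 and 2.18 CPM in DOCA replicates 1 to 4, 2.74, 3.62, 2.30 and 2.87 CPM in finerenone replicates 1 to 4, and 1.13, 1.22, 0.962 and 1.65 CPM in spironolactone replicates 1 to 4. The spironolactone libraries lay between the control and the DOCA libraries without overlap. The log2 fold change of spironolactone to DOCA was -1.72 ± 0.51 (SE, n = 3 and 3), with an edgeR adjusted p of 0.9996, and compared with control it was called higher, at 1.78 ± 0.64 (SE, n = 3 and 4) with an adjusted p of 0.038.

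**Figure D4:**
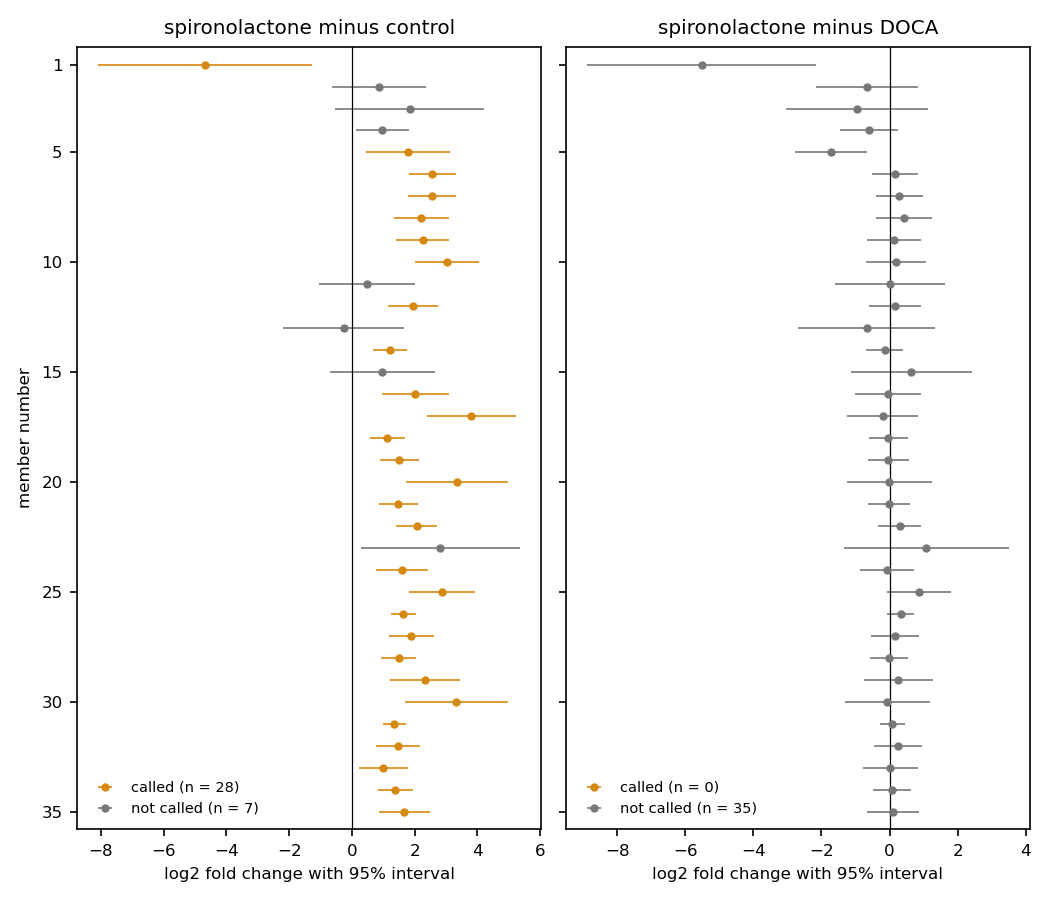
The log2 fold change of spironolactone over control (left) and over DOCA (right) for members 1 to 35, as points with 95% intervals from edgeR, coloured where called. On the left 27 members are called higher and member 1 lower, and on the right none of the 35 is called and the widest intervals belong to members with near-zero libraries.

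Both drugs were compared directly as well. Of the members, 1 was called between finerenone and spironolactone by edgeR, compared with 11.4% of all genes tested. This was member 1, higher in finerenone with a log2 fold change of 5.45 ± 1.49 (SE, n = 4 and 3) and an adjusted p of 0.0293. With all 16 libraries the log2 fold change was 1.65, with an edgeR adjusted p of 0.386. The next smallest adjusted p was 0.0636, in member 5, with 1.36 ± 0.49 (SE, n = 4 and 3). The median over the members was -0.20, beside -0.04 over all genes tested. The 95% interval lay within -1 and 1 for 15 members, all of them steady ones, and reached beyond these limits for the other 20. For all genes tested the interval lay within these limits for 66.4%. The finerenone libraries in this comparison were used in the selection.

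How far finerenone kidneys kept the DOCA level depended on the scale. The 50 most abundant genes held 29.4% to 31.5% of the counts in control, 27.8% to 32.6% in finerenone, 22.6% to 25.8% in DOCA and 22.4% to 25.5% in spironolactone libraries, and the TMM factors ranged from 0.855 to 0.903, 0.898 to 0.973, 1.09 to 1.14 and 1.07 to 1.12 in these groups. With CPM of the plain library total, finerenone was below DOCA for 33 of the 35 members and by more than 0.25 for 20. With log2(TPM + 1), finerenone was below DOCA for all 35 and by more than 0.25 for 26. All genes tested moved with the scale, with a median finerenone minus DOCA of -0.04 after TMM, -0.26 with the library total and -0.34 in TPM, and the members' medians were -0.08, -0.30 and -0.35. Relative to the median of all genes on each scale, 32 members lay within 0.25 with the library total and 31 in TPM. The selection had required all 35 to lie within 0.25 after TMM in the same libraries, so these counts are a description. Finerenone exceeded control for all 35 members on each of these scales, by at least 1 for 35 with the library total and for 24 in TPM. The selection had required this rise after TMM in the same libraries, so nothing is read from these counts. The median finerenone minus control of all genes tested was -0.01 after TMM, 0.07 with the library total and 0.08 in TPM.

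**Figure D5:**
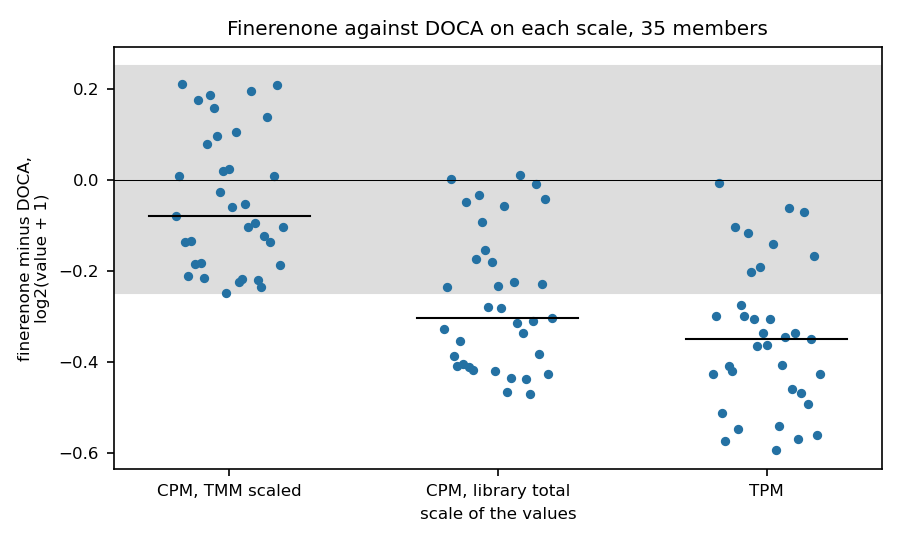
Finerenone minus DOCA (DOCA replicates 1 to 3) for each of the 35 members, on log2(value + 1) of CPM with TMM scaling, CPM of the library total and TPM, with the median as a line and the window of 0.25 either side of 0 in grey. All 35 points lie in the window by selection after TMM, 15 do with the library total and 9 do in TPM, where every point is below 0.

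The share of all calls between spironolactone and control that were higher also moved with the scale, from 59.9% after TMM to 89.9% with the library total and 95.8% with limma on log2(TPM + 1), as the median of all genes shifted from 0.02 to 0.33 and 0.41. The number of members called higher was 27, 29 and 30 in these fits. The share of all genes called higher was not calculated with the library total or in TPM, so these counts are not read as a gain.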

How the data were processed

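Per the labels and the study's methods, polyadenylated RNA of rat kidneys was made into libraries that kept the strand. The authors trimmed reads with Trim Galore 0.4.5, used STAR 2.7.3a and RSEM for alignment and gene quantification, and named rn6 (Rnor_6.0) as the build. These names and versions come from the submitters' processing notes, and the annotation was not given in the sources used here. RSEM's estimated counts were deposited unscaled. Of these, 3.14% had decimals, and all were rounded before use. The deposited TPM values are the authors' abundances, corrected for length and set to 1 total in every library.

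Samples were grouped by their labels. The members, the near-zero description and the split by code number were chosen with earlier results of these data known. The rule for named genes needed gene symbols, which were not matched, so members carry numbers, and 4 IDs are printed: members 1 and 2 by order, members 13 and 26 after their values were seen. Gene lists and cell type markers drawn up by symbol could not be used.

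The filter kept genes counted more than 4 times in 3 or more of 14 libraries, and these were tested in 1 fit of all groups with edgeR 4.0.16 in R 4.3.3 (TMM, robust quasi-likelihood F test, Benjamini-Hochberg adjustment). Standard errors were the fold change over the root of F. CPM used TMM over all 16 libraries. The tests were checked on simulated data. Alternatives used DESeq2 1.42.0, limma 3.58.1, other scalings and filters, and left-out libraries. Total counts of 7063146 to 10932887 set the floor of 3 counts at 0.248 to 0.484 CPM, for counting error only. Each labelled library counted as a replicate. No pair of same-group libraries (24 pairs) agreed within sampling noise, the chi-square per gene being 4.71 to 42.2, which separate preparations of 1 kidney could also give. A sheet of sample descriptions was not used.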

Additional observations from a re-analysis of the deposited data

Results flagged for a closer look

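The CPM of each member were examined in each group of 4 libraries for a library apart from the others, by Dixon's ratio of its gap to the range. Of 140 groups examined, 15 passed the 95% critical value for 4 libraries, 9 through a high and 6 through a low library. Chance flags about 1 in 20 groups. These were 10.7% of the groups, beside 6.603% over all genes tested, and the control, DOCA 1 to 3 and finerenone values had also selected the members.

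Among members with near-zero libraries, the ratio was 0.944 for member 1 in spironolactone (replicate 4 at 31.7 CPM beside 0 to 1.78). It was 0.832 for member 3 in control (replicate 3 at 2.98 CPM beside 0.157 to 0.632) and 0.880 in spironolactone (replicate 3 at 0.241 CPM beside 5.63 to 6.37). It was 0.842 for member 11 in control (replicate 1 at 0.157 CPM beside 47.4 to 56.3) and 0.899 in finerenone (replicate 3 at 52.8 CPM beside 60.5 to 61.3). It was 0.839 for member 13 in finerenone (replicate 3 at 36.5 CPM beside 48.7 to 51.1) and 0.832 for member 23 in DOCA (replicate 1 at 0 CPM beside 11.01 to 13.2).

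DOCA replicate 4 was the high library for member 6, with a ratio of 0.847 (19.7 CPM beside 4.99 to 7.24), for member 31, with 0.878 (38.0 CPM beside 19.3 to 21.6), and for member 34, with 0.950 (39.2 CPM beside 12.8 to 14.1). In control, replicate 4 was high for member 8, with a ratio of 0.951 (4.36 CPM beside 0.940 to 1.11), and for member 10, with 0.901 (1.45 CPM beside 0.313 to 0.426). The remaining groups had few counts. They were member 29 in control, with a ratio of 0.948 (replicate 3 at 0.994 CPM), member 30 in control, with 0.899 (replicate 4 at 0 CPM), and member 30 in finerenone, with 0.868 (replicate 4 at 3.17 CPM beside 1.01 to 1.30).

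Member 1 differed between both drug groups, with a log2 fold change of finerenone over spironolactone of 5.45 and an edgeR adjusted p of 0.0293. It was higher in all 4 finerenone libraries than in spironolactone replicates 1 to 3, and spironolactone replicate 4, outside the fit, lay within the finerenone range at 31.7 CPM.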

How the results depend on the processing

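With the same thresholds, the selection gave 144 IDs with log2(CPM + 0.1), of which 27 were members, 71 with a window of 0.5, all 35 members among them, and 80 with only the finerenone libraries of first code number 3, a setting added after the data were seen. Leaving out a library gave 27 to 65 IDs, 65 without finerenone replicate 3. Without finerenone replicate 4, 17 of the 27 IDs were members, the fewest members kept with a library left out. Other settings kept the number between 24 and 44, but not the genes. The rule was met by 15 members with the library total alone, 5 with log2(TPM + 1) and 21 with all 4 DOCA libraries. With group medians in place of means, also added later, 22 members met it. The cause was not tested.

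The number of members called higher in spironolactone than in control, 27, was 25 to 30 under every alternative run (25 to 27 with a library left out, 27 among members without a near-zero library, counted after the data were seen). Under some of these, members 2, 4 and 23 gained this call, member 2 with limma on log2(TPM + 1). With the library total alone, 34 members were above every control library in DOCA replicate 4 and 28 in all spironolactone libraries. The count of 0 between spironolactone and DOCA held in all 25 alternatives. The 1 member called between finerenone and spironolactone became 2 with the library total alone, 2 with DESeq2, 0 with limma-voom, 7 with limma on log2(TPM + 1), 4 with limma on log2(TPM + 0.1) and 0 with all 16 libraries. It ranged from 0 to 2 with a library left out: 0 without finerenone replicate 2 or 4 or spironolactone replicate 1, 2 or 3, and 2 without control replicate 2 or 3. The median finerenone minus spironolactone value of all genes was -0.34 with log2(TPM + 1) and -0.42 with log2(TPM + 0.1), beside -0.04 in the main fit. The share of all genes called was not calculated for the alternatives.

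Same-numbered libraries did not deviate together in all pairs (r of -0.09 to 0.19 over 19 pairs, 5 over 0.1). These values do not decide whether such libraries share more than a number. With the replicate block, 26, 0 and 0 members were called in the 3 comparisons, and every call of member 1 was lost (adjusted p of 0.12 and 0.0727). Member 1 lost its lower call in spironolactone without control replicate 1 (-4.10) or 4 (-4.15), without spironolactone replicate 1 (-4.14), 2 (-9.93, both libraries left being at 0, so that the value depends on the prior count) or 3 (-4.12), with limma-voom (-4.55) and with both TPM scales (-1.50 and -2.94). Its finerenone to spironolactone value was 4.89 to 10.7 with a library left out. Member 13, never called, changed sign between spironolactone and control with the library total alone (0.026), limma-voom (0.92), log2(TPM + 1) (1.06), log2(TPM + 0.1) (1.88), all 16 libraries (0.061), and without control replicate 3 (0.01) or spironolactone replicate 2 (0.24). Without other libraries it was as low as -0.68.

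Few counts limit many members: 15 had a control library under 3 counts, and 3 had all 4 control libraries there.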
